A study of Mus musculus with 7 samples.

Results

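The 39 interferon-stimulated genes described here were followed through the white blood cells of the infarcted mouse heart, class by class and day by day. The members were chosen by symbol, and the rule read no levels, but earlier results of these data were known at the choice. All 39 were found among the 27514 gene names shared by the annotations of the 7 matrices. They comprise 21 antiviral effectors (Ifit1, Ifit2, Ifit3, Ifit3b, Isg15, Isg20, Rsad2, Cmpk2, Oasl1, Oasl2, Oas1a, Oas2, Oas3, Usp18, Ifi44, Mx1, Ifitm3, Bst2, Rtp4, Xaf1 and Trim30a), 5 nucleic acid sensors (Ddx58, Ifih1, Zbp1, Ifi204 and Ifi205), 4 transcription factors (Irf1, Irf7, Irf9 and Stat2), 7 interferon-induced GTPases (Gbp2, Gbp3, Gbp5, Gbp7, Igtp, Iigp1 and Ifi47) and 2 chemokines (Cxcl9 and Cxcl10). Usp18, which removes Isg15 from proteins and dampens receptor signalling, was counted with the effectors.

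The study profiled single leukocytes after myocardial infarction made by permanent ligation of the left coronary artery in C57BL6/J mice. The CD45+ libraries, 5 in number, held viable cells positive for CD45, the antigen carried by white blood cells, and negative for a CD45.2 antibody given into the blood before death, from male mice. They came from pooled hearts at steady state (5 mice, non-infarcted, the matching part of the left ventricle) and at day 1 (5 mice), day 3 (5 mice), day 5 (5 mice) and day 7 (3 mice) after ligation. Infarct, border zone and the viable muscle next to it were used, and a step to reduce neutrophils was applied at early times. A further library held CD11b+ heart cells, that is myeloid cells, of male mice at day 1 (5 mice), day 3 (5 mice) and day 5 (3 mice), told apart by 3 hashtag antibodies and stained with a panel of surface antibodies that included Ly6G, a neutrophil antigen. The last library pooled CD11b+ cells of blood and heart from mice 8 to 10 weeks old under 7 hashtags. Its groups were mice without surgery (3), sham-operated mice at day 1 (3) and day 3 (3), and infarcted mice at day 1 (5) and day 3 (5), with Ly6G-positive and Ly6G-negative cells adjusted to about 1:1. The mapping of its 7 hashtags to these groups was not known here, so they are described one by one and enter no comparison of conditions. The labels name no transgene or deletion. Every day was a pool of mice, so the spread between mice was not measured.

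Type I interferons bind a receptor on almost every nucleated cell and activate a complex that contains STAT2 and IRF9. This complex enters the nucleus and binds the interferon-stimulated response element (ISRE), switching on genes that block the life cycle of viruses, sense foreign nucleic acid and attract lymphocytes. Interferon gamma binds its own receptor and acts at a different element, the gamma-activated site (GAS), and the 2 sets of target genes overlap. In the infarcted heart, nucleic acid from dying cells is a known trigger of type I interferon in phagocytes.

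Promoter windows of RefSeq (build GRCm38.p6, 250 bases before to 50 after the annotated start) were found for 32 of the 39 members. Oas2, Usp18, Ifi204, Mx1, Rtp4, Zbp1 and Iigp1 had none. The ISRE core, searched on both strands as GAAA, any 2 bases and GAAA again, was present in 20 of the 32 (62.5%) and in 3.99% of all 27025 genes with a window. The GAS letters, TTC, any 3 bases and GAA, a motif that reads the same on both strands, were present in 9 of the 32 (28.1%) and in 9.55% of all genes. The 250 bases upstream of the start are shown for 6 members whose levels recur below, on the gene's own strand, with matches in capitals. Isg15 (chr4:156200819-156201068, minus strand) held 3 overlapping ISRE cores, and Ifit3 (chr19:34583279-34583528, plus strand) and Ifit3b (chr19:34607707-34607956, plus strand) carried the same pair of cores in nearly the same surroundings. Cxcl10 (chr5:92348890-92349139, minus strand) held 1 core, Irf1 (chr11:53769764-53770013, plus strand, the first of 2 annotated starts) held GAS letters only, and in Bst2 (chr8:71537473-71537722, minus strand) the GAS letters ran into 2 overlapping ISRE cores.
Isg15: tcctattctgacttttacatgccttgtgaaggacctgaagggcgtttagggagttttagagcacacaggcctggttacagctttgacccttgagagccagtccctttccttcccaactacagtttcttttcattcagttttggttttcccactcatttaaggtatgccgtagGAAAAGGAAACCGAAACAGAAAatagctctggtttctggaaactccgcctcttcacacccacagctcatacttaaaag
Ifit3: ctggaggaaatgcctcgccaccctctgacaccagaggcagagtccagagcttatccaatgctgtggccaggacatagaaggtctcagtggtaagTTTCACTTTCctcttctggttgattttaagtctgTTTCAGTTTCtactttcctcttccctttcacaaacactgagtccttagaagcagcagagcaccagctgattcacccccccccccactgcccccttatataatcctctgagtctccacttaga
Ifit3b: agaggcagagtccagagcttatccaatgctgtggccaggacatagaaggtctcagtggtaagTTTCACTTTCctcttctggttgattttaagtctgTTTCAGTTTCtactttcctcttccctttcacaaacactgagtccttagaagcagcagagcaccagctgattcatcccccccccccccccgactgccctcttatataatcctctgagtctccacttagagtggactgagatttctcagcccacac
Cxcl10: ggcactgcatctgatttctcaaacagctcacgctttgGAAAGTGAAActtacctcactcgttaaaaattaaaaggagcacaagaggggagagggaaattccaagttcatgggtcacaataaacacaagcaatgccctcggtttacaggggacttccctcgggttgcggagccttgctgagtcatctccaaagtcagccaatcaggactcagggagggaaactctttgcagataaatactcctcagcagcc
Irf1: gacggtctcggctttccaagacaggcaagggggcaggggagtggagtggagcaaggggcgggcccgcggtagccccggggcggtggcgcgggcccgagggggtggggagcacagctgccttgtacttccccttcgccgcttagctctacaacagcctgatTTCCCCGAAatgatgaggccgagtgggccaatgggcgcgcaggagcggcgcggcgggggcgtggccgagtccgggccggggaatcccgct
Bst2: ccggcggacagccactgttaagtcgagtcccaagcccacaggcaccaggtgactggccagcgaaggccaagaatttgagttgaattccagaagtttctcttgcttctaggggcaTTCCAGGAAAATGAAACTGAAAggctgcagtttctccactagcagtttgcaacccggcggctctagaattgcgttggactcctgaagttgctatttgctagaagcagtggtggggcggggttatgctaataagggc
These matches describe letters in a window. No chromatin or binding data were collected.

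After filtering, the CD45+ libraries held 639 cells at steady state and 527, 844, 946 and 1795 cells at days 1, 3, 5 and 7, the CD11b+ heart pool 4282 cells and the blood and heart pool 9999 cells, with library totals of 3655070 to 92965617 unique molecular identifiers (UMIs, 1 per captured RNA molecule). Median UMIs per cell ran from 3595 in the CD45+ day 7 library to 18082.5 in the CD11b+ pool. The CD45+ libraries shared 0 to 2 barcodes with each other. Clusters were built without the 39 members and named from markers as neutrophils, monocytes/macrophages, T/NK cells or B cells. One cluster in each experiment with high MHC class II genes had too few supported markers and stayed unnamed. All 17 neutrophil markers were found in the neutrophils of CD45+ days 1 and 3, and 16 (all but Camp) at day 5. Each comparison of classes below rests on clusters unless the Ly6G antibody is named.

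Summed over all cells of the 7 libraries, 1 gene held slightly more UMIs than the other 38 together. Ifitm3, a membrane protein that stops virus fusion, made up 51.2% of the module's UMIs. Bst2 (tetherin, which holds budding virus to the cell) followed with 5.75%, Isg15, a ubiquitin-like protein conjugated to other proteins, with 4.77%, and Ifi204, a DNA sensor, with 4.08%. Trim30a (3.48%), Oasl2 (2.69%), Irf7 (2.65%), Rtp4 (2.12%), Rsad2 (1.98%) and Zbp1 (1.91%) brought the first 10 members to 80.6%. This ranking is pooled over classes and did not hold in each: in pool neutrophils at day 1 Ifitm3 (2432 CPM) was near Isg15 (2233 CPM). Ifitm3 and Bst2 are also high in resting myeloid cells, so the module's share of UMIs is given for all 39 members and for the 37 members without that pair, a set chosen after this composition was seen.

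In neutrophils of the CD45+ libraries, the share held by the 37 members was 0.170% at day 1 (95% exact binomial interval 0.161 to 0.179, 217 cells), 0.526% at day 3 (0.504 to 0.548, 135 cells) and 0.456% at day 5 (0.416 to 0.498, 40 cells). The value at day 1 was the lowest of the 3 days. In neutrophils of the CD11b+ pool the order was the other way, with 0.892% at day 1 (0.874 to 0.909, 254 cells), 0.346% at day 3 (0.341 to 0.352, 993 cells) and 0.234% at day 5 (0.224 to 0.244, 224 cells). These intervals cover counting error only. With all 39 members the neutrophil shares were 0.326%, 0.802% and 0.696% in the CD45+ libraries and 1.15%, 0.445% and 0.301% in the pool. Nearly all CD45+ day 1 neutrophils (215 of 217) lay in a cluster led by Ngp, Retnlg and Lcn2, while those of day 3 (133 of 135) and day 5 (40 of 40) lay in another, led by G0s2 and Il1r2.

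Monocytes/macrophages held less of the 37-member signal and varied less between days. Their share in the CD45+ libraries was 0.138% at steady state (528 cells), 0.203% at day 1 (251 cells), 0.218% at day 3 (640 cells), 0.223% at day 5 (765 cells) and 0.127% at day 7 (582 cells). In the pool it was 0.167% at day 1 (213 cells), 0.137% at day 3 (1012 cells) and 0.0980% at day 5 (1154 cells). At each of the 5 pairs other than CD45+ day 1, the neutrophil share was higher than the monocyte/macrophage share of the same library and day. At CD45+ day 1 it was lower, 0.170% against 0.203%. With all 39 members, CD45+ monocytes/macrophages held 0.345% at steady state and 0.375%, 0.606%, 0.505% and 0.326% at days 1, 3, 5 and 7. Those of the pool held 0.435%, 0.336% and 0.198% at days 1, 3 and 5. Most of the CD45+ day 1 monocytes/macrophages (240 of 251) lay in a cluster of their own led by Saa3, Cxcl3 and Arg1, and the clusters that held most of the class at steady state, day 3 and day 5 were again others. Neutrophil markers summed to 24690 CPM in that day 1 class, against 160 to 2869 CPM at the other CD45+ times. All 17 neutrophil markers had UMIs there. The part of these neutrophil transcripts in the day 1 values was not tested. In the reverse direction, 19 of the 20 monocyte/macrophage markers had UMIs in CD45+ neutrophils at each day (Cx3cr1 was at 0 at days 1 and 3, Mrc1 at day 5), summing to 21970, 18260 and 15440 CPM, and in the pool the sums were 16040, 7359 and 8627 CPM at days 1, 3 and 5. Their part was not tested either.

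**Figure D1:**
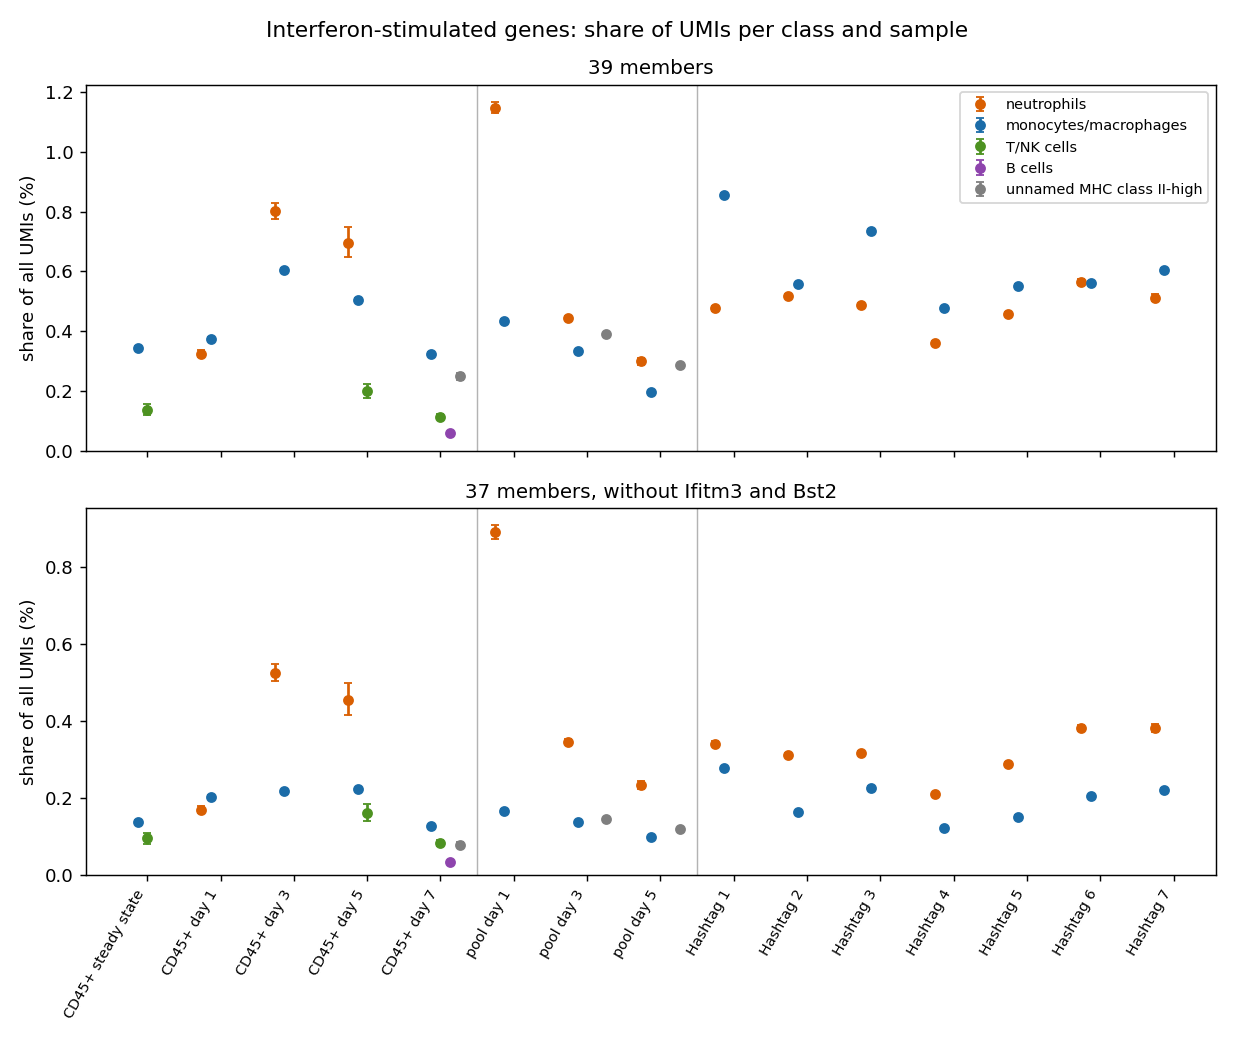
Share of UMIs (percent of all gene UMIs, vertical axis) held by the 39 members and by the 37 members without Ifitm3 and Bst2 (the 2 panels) in each class, day and experiment, the 7 unmapped hashtags included, with the unnamed cluster shown for the heart only. CD11b+ pool neutrophils at day 1 stand highest in the 37-member panel, at 0.892%, and day 7 B cells lowest, at 0.0323%.

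B cells were lowest, and T/NK cells lay within or below the range of monocytes/macrophages. T/NK cells held 0.0948% of their UMIs in the 37 members at steady state (41 cells), 0.161% at day 5 (31 cells) and 0.0822% at day 7 (135 cells), and B cells at day 7 held 0.0323% (965 cells). The unnamed MHC class II-high cluster held 0.0784% at CD45+ day 7 (61 cells), 0.145% at pool day 3 (154 cells) and 0.119% at pool day 5 (250 cells). At CD45+ day 7 the order from high to low was monocytes/macrophages, T/NK cells, the unnamed cluster and B cells, and the counting intervals of T/NK cells (0.0751 to 0.0898) and the unnamed cluster (0.0726 to 0.0846) overlapped. Spread between mice was not available for any of these.

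Levels of single members are given as CPM, the gene's UMIs scaled to a fixed total of UMIs of the summed cells. These describe the classes, which were defined by clustering, and carry no test. Of the 39 members, 13 were higher in neutrophils than in monocytes/macrophages in 6 of 6 pairs of library and day (Ifit3, Isg15, Isg20, Oasl2, Oas2, Oas3, Rtp4, Trim30a, Ddx58, Irf1, Irf7, Irf9 and Gbp2), and 7 were lower in 6 of 6 (Oas1a, Ifi44, Mx1, Bst2, Ifi205, Iigp1 and Cxcl9). Of the 10169 genes above a filter on low counts, which the 37 members other than Ifi44 and Cxcl9 passed, 9.55% were higher in neutrophils in 6 of 6 pairs and 35.5% lower, against 13 and 5 of those 37 members. Only for Isg15, Isg20 and Mx1, among the 39, did the 6 neutrophil values and the 6 monocyte/macrophage values not overlap at all, as held for 4.4% of the 10169 genes with neutrophils above and for 14.0% with monocytes/macrophages above.

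Among the effectors, Isg15 stood at 421, 1254 and 1070 CPM in CD45+ neutrophils at days 1, 3 and 5 and at 2233, 651 and 429.5 CPM in pool neutrophils. In CD45+ monocytes/macrophages it stood at 154 CPM at steady state and 314, 344, 264 and 195 CPM at days 1, 3, 5 and 7, and in those of the pool at 278, 170.4 and 92.8 CPM at days 1, 3 and 5. The lowest neutrophil value thus lay above the highest monocyte/macrophage value. Isg20, an exonuclease that degrades RNA, was at 146, 290.4 and 172 CPM in CD45+ neutrophils and at 528, 111 and 97.2 CPM in pool neutrophils. Across the 8 monocyte/macrophage sums it ran from 10.2 to 25.0 CPM, again without overlap. Rsad2 (viperin, which makes a chain-terminating nucleotide) was at 57.1, 248 and 229 CPM in CD45+ neutrophils and at 1033, 370.1 and 342 CPM in pool neutrophils, while CD45+ monocytes/macrophages were at 21.0 CPM at steady state and 116, 50.7, 64.5 and 47.9 CPM at days 1 to 7, and those of the pool at 76.7, 81.4 and 69.5 CPM. CD45+ day 1 was the pair in which Rsad2 was lower in neutrophils.

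Rtp4, a protein that restrains RNA viruses, was at 174, 458 and 411 CPM in CD45+ neutrophils and 302, 125 and 79.5 CPM in pool neutrophils. Its CD45+ monocyte/macrophage values were 88.8 CPM at steady state and 95.7, 133, 154 and 66.7 CPM at days 1 to 7, and those of the pool 73.2, 46.1 and 30.6 CPM. Trim30a, a ubiquitin ligase family member, was at 50.3, 151 and 143 CPM in CD45+ neutrophils and 388, 207 and 128 CPM in pool neutrophils, and in monocytes/macrophages at 71.2 CPM at steady state, 29.4, 81.9, 83.0 and 61.5 CPM at CD45+ days 1 to 7 and 114, 98.0 and 67.4 CPM in the pool. Oasl2, of the oligoadenylate synthetase family, was at 32.0, 236 and 219.7 CPM in CD45+ neutrophils and 529, 241 and 151 CPM in pool neutrophils, and in monocytes/macrophages at 42.5 CPM at steady state, 25.6, 76.8, 87.5 and 46.1 CPM at CD45+ days 1 to 7 and 77.7, 59.7 and 37.4 CPM in the pool. For each of these 3 members the neutrophil value was higher within every pair, although the ranges over all sums overlapped.

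The tetratricopeptide proteins Ifit1, Ifit2, Ifit3 and Ifit3b, which bind viral RNA, followed the same split between experiments. Ifit3b was at 5.7, 129.9 and 76.4 CPM in CD45+ neutrophils and at 148, 61.0 and 33.1 CPM in pool neutrophils, against 1.4 to 16.0 CPM in the monocyte/macrophage sums. Ifit1 was at 60.6, 215 and 105 CPM in CD45+ neutrophils and at 544, 184 and 185 CPM in pool neutrophils. In monocytes/macrophages Ifit1 was highest at CD45+ day 1, at 124 CPM, and lay between 11.8 and 30.7 CPM in the other 7 sums. Of the last 400 bases of Ifit3, 19.1% of the 50-base words also occur in another gene, Ifit3b among them. Reads from such words cannot be assigned to a single gene by sequence, and their effect on the counts was not tested. The same holds for 87.5% of those of Ifi205 (with Ifi211 and Mndal), 43.6% of those of Oas1a (with Oas1g) and 12.2% of those of Ifitm3 (with Ifitm1).

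Ifitm3 and Bst2 behaved differently from this group. Ifitm3 was at 1547, 2678 and 2264 CPM in CD45+ neutrophils and 2432, 873 and 585 CPM in pool neutrophils, against 1676 CPM in steady-state monocytes/macrophages, 1650, 3544, 2373 and 1635 CPM at CD45+ days 1, 3, 5 and 7 and 2383, 1659 and 731 CPM in the pool. It was the higher in neutrophils in 1 of the 6 pairs. Bst2 was at 19.4, 82.6 and 143 CPM in CD45+ neutrophils and 120.2, 107 and 80.6 CPM in pool neutrophils. In monocytes/macrophages Bst2 was at 395 CPM at steady state, 70.1 CPM at CD45+ day 1, 339 CPM at day 3, 451 CPM at day 5 and 351 CPM at day 7, and at 293, 329 and 266 CPM in the pool. The CD45+ day 1 sum was the lowest of the 8. Mx1, a dynamin-like GTPase that blocks influenza virus, reached at most 3.6 CPM in a neutrophil sum and was at 2.6 CPM in steady-state monocytes/macrophages and 5.4 to 13.2 CPM in those after infarction. Laboratory strains such as C57BL/6 carry a deletion in Mx1, so its RNA in these mice need not give a working protein.

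Of the sensors, Zbp1, which senses Z-form nucleic acid and can start cell death, was at 130.3, 210.2 and 248 CPM in CD45+ neutrophils and at 200.3, 31.5 and 25.4 CPM in pool neutrophils. Its monocyte/macrophage values were 34.3 CPM at steady state, 72.2, 149, 128 and 62.8 CPM at CD45+ days 1 to 7 and 89.9, 69.4 and 36.4 CPM in the pool. At pool days 3 and 5 Zbp1 was thus lower in neutrophils, unlike in the other 4 pairs. Ifi204 was at 89.1, 175 and 143 CPM in CD45+ neutrophils, below the 210.3, 248 and 209.9 CPM of monocytes/macrophages at the same days, and at 483, 116 and 81.7 CPM in pool neutrophils against 215, 182 and 114 CPM. Steady-state and day 7 monocytes/macrophages had 158 and 134 CPM. Ifi204 was the higher in neutrophils only at pool day 1, among the 6 pairs. Its relative Ifi205 was low in neutrophils, from 0 to 18.9 CPM, and at 8.8 to 71.5 CPM in monocytes/macrophages. Ddx58 (RIG-I) and Ifih1 (MDA5), sensors of viral RNA, ran from 25.1 to 89.0 CPM and from 9.6 to 46.3 CPM in the 6 neutrophil sums.

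Among the transcription factors, Irf7, the main amplifier of the type I interferon response, was at 66.3, 385 and 363 CPM in CD45+ neutrophils and 344, 135 and 68.4 CPM in pool neutrophils. Its monocyte/macrophage values were 45.3 CPM at steady state, 51.2, 238, 244 and 102 CPM at CD45+ days 1 to 7 and 139, 95.3 and 63.2 CPM in the pool. Both classes were lowest at day 1 in the CD45+ libraries and highest at day 1 in the pool, over the 3 days they share. Irf1 did not follow the rest. It was at 17.1, 68.5 and 200.6 CPM in CD45+ neutrophils and 95.2, 265 and 119 CPM in pool neutrophils, so day 1 was lowest in both experiments. Irf9 ran from 43.1 to 96.1 CPM and Stat2 from 9.4 to 35.6 CPM in neutrophils, each highest at pool day 1.

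The GTPases attack membranes around intracellular pathogens. Gbp2 was at 33.1, 224 and 201 CPM in CD45+ neutrophils and at 123, 42.1 and 27.6 CPM in pool neutrophils, against 12.4 to 53.6 CPM in monocytes/macrophages. Ifi47 was at 14.9, 113 and 57.3 CPM in CD45+ neutrophils and at 128, 21.4 and 6.6 CPM in pool neutrophils. Iigp1 was rare, at most 8.4 CPM in any of these sums. Of the chemokines, which recruit T cells through CXCR3, Cxcl9 had no UMI in the 6 neutrophil sums and was highest in steady-state monocytes/macrophages, at 14.1 CPM. Cxcl10 was at 44.6, 146 and 115 CPM in CD45+ neutrophils and 402, 263 and 83.9 CPM in pool neutrophils. In monocytes/macrophages Cxcl10 was highest at CD45+ day 1, at 441 CPM, and lay between 46.4 and 129 CPM in the other sums.

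**Figure D2:**
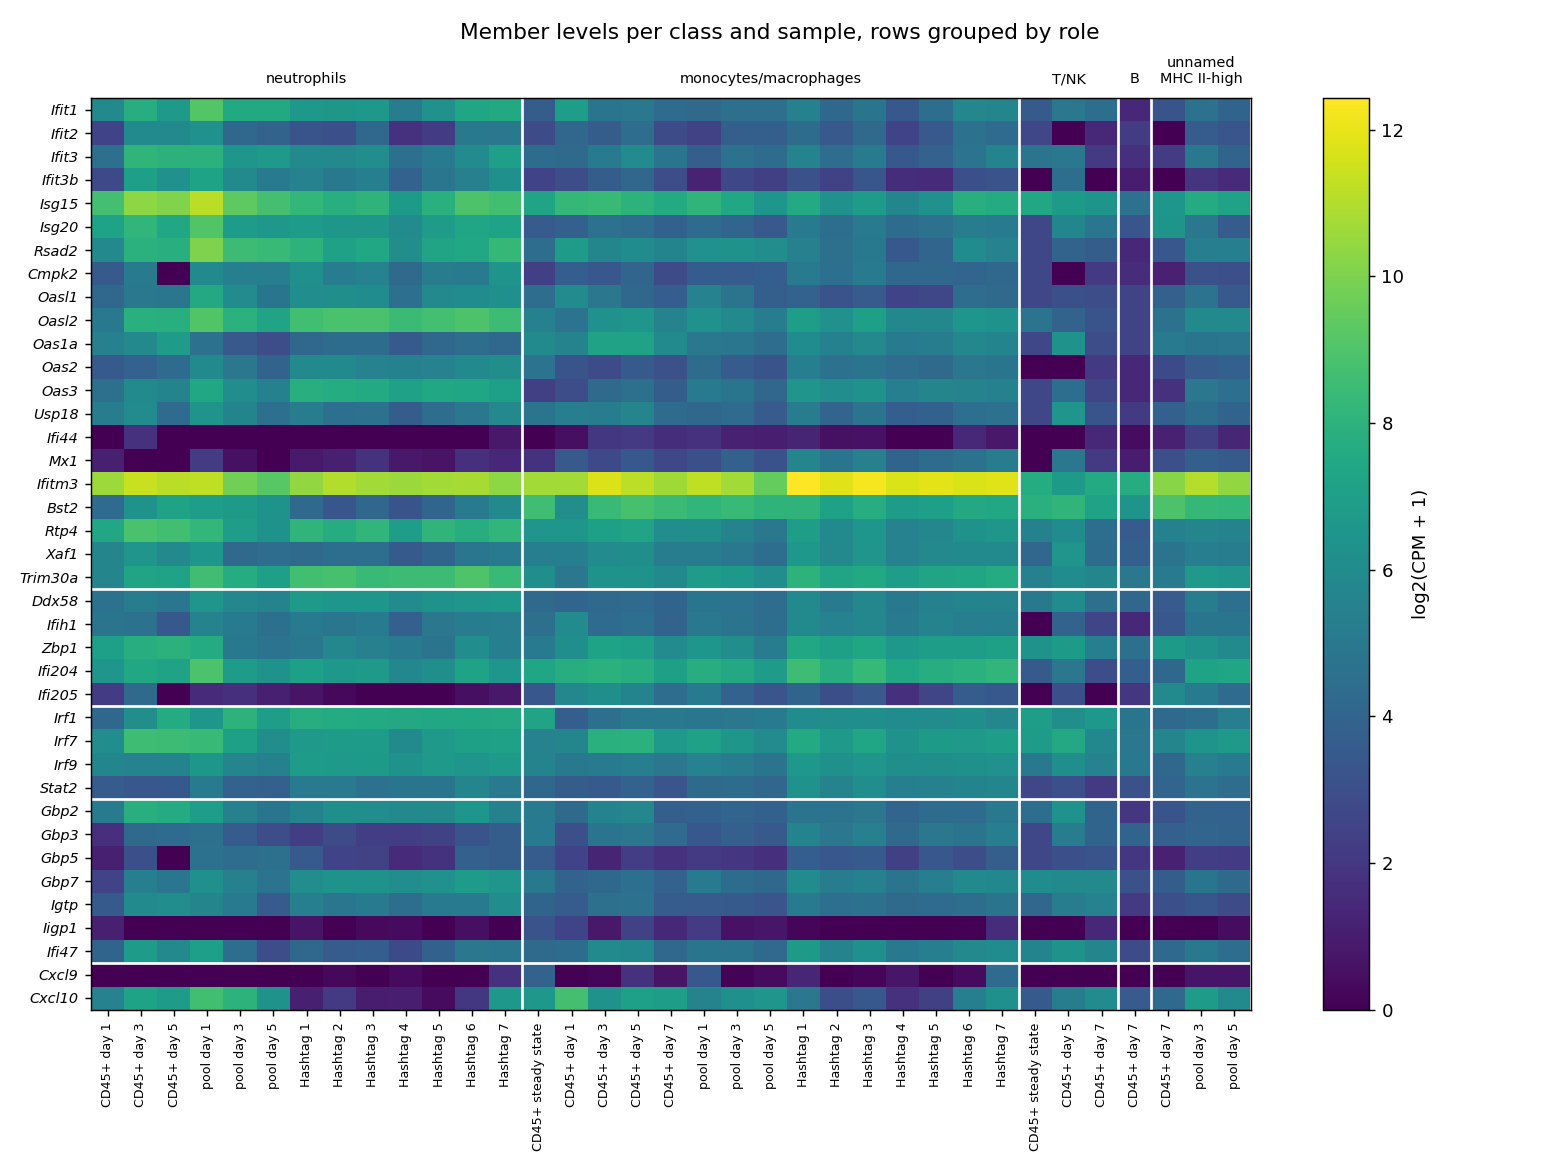
Level of each member, as log2 of CPM plus 1 on the colour scale, in the summed cells of each class and sample (columns, hashtags included), with members (rows) ordered by role. Isg15 was brightest in the pool day 1 neutrophils, at 2233 CPM, and Mx1 reached at most 3.6 CPM in the heart neutrophil columns.

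The Ly6G antibody gave a measure of cell class made without RNA, available for the 3 days of the CD11b+ pool. Ly6G-positive and Ly6G-negative cells were summed per day (269, 1082 and 287 positive, 226, 1077 and 1341 negative cells at days 1, 3 and 5) and compared over the 3 days with day as a block. The 37 members held 0.728%, 0.311% and 0.168% of UMIs in Ly6G-positive cells and 0.162%, 0.130% and 0.100% in Ly6G-negative cells. Of the 36 members tested, 24 were higher in Ly6G-positive cells and 0 lower, with a median log2 difference of 1.39 against -0.10 over all 10211 genes. Over all those genes 41.5% passed the same test (20.7% higher, 20.7% lower). The test was edgeR's quasi-likelihood test with Benjamini-Hochberg adjustment over all genes.

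The members past the threshold were 15 of 20 effectors, 1 of 5 sensors (Ddx58), 3 of 4 transcription factors (Irf1, Irf7 and Irf9), 4 of 6 GTPases (Gbp2, Gbp5, Gbp7 and Igtp) and the 1 chemokine tested (Cxcl10). The largest difference was in Ifit3b, with 109, 44.9 and 13.7 CPM in Ly6G-positive cells at days 1, 3 and 5 against 2.70, 4.22 and 3.80 CPM in negative cells (log2 difference 3.66, SE 0.59, adjusted p 0.0023 by edgeR's quasi-likelihood test). Isg20 was at 403, 85.2 and 49.9 CPM against 18.9, 15.6 and 9.90 CPM (3.29, SE 0.49, adjusted p 0.0015 by the same edgeR test). Ifit1 was at 421, 137 and 82.8 CPM against 21.6, 20.7 and 21.5 CPM (3.23, SE 0.50, adjusted p 0.0019 by edgeR). The positive and negative values of these 3 members did not overlap. Of the 36 members, 14 did not overlap with positive cells above, against 16.7% of the 10211 genes, and 1 (Bst2) with negative cells above, against 27.6%. Gbp5, a guanylate-binding protein that promotes inflammasome assembly, was at 19.1, 15.1 and 12.5 CPM against 3.08, 2.77 and 2.30 CPM (2.73, SE 0.28, adjusted p 0.00023 by edgeR). Rsad2 was at 789, 316 and 149 CPM against 76.3, 65.6 and 66.2 CPM (2.55, SE 0.48, adjusted p 0.0043 by edgeR). Ifit3 differed by 2.47 (SE 0.51, adjusted p 0.0068 by edgeR). All 6 were higher in Ly6G-positive cells at 3 of 3 days, as were 24 of the 36 members and 21.5% of the 10211 genes. Bst2 was the 1 member lower at 3 of 3 days, where 47.1% of the genes were.

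The 12 members that did not pass were Bst2, Ifitm3, Mx1, Oas1a, Xaf1, Ifi204, Ifi205, Ifih1, Zbp1, Stat2, Gbp3 and Ifi47, while Cxcl9, Ifi44 and Iigp1 were too low to be tested. Bst2 was at 149, 157 and 229 CPM in Ly6G-positive cells against 302, 333 and 269 CPM in negative cells (log2 difference -0.50, SE 0.19, adjusted p 0.064 by edgeR's quasi-likelihood test). Ifitm3 was at 2613, 1463 and 978 CPM against 2352, 1668 and 813 CPM (0.36, adjusted p 0.21 by edgeR). The Ly6G-positive sums were not purely cluster neutrophils. Cluster neutrophils gave 73.6%, 60.8% and 35.7% of their UMIs at days 1, 3 and 5, and 16, 109 and 60 cells of the monocyte/macrophage clusters gave 26.3%, 38.6% and 55.0%. In the Ly6G-negative sums cluster neutrophils gave at most 0.226%. Without the day block 11 passed, all higher, and leaving out 1 sum gave 16 to 33, the lowest without the positive day 3 sum. Other settings also called members lower. These were 3 without the low-count filter (29 higher, 39 tested), 3 with classes from clusters (23 higher) and 1 with library totals (23 higher). Leaving out 1 sum gave at most 2 lower.

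**Figure D3:**
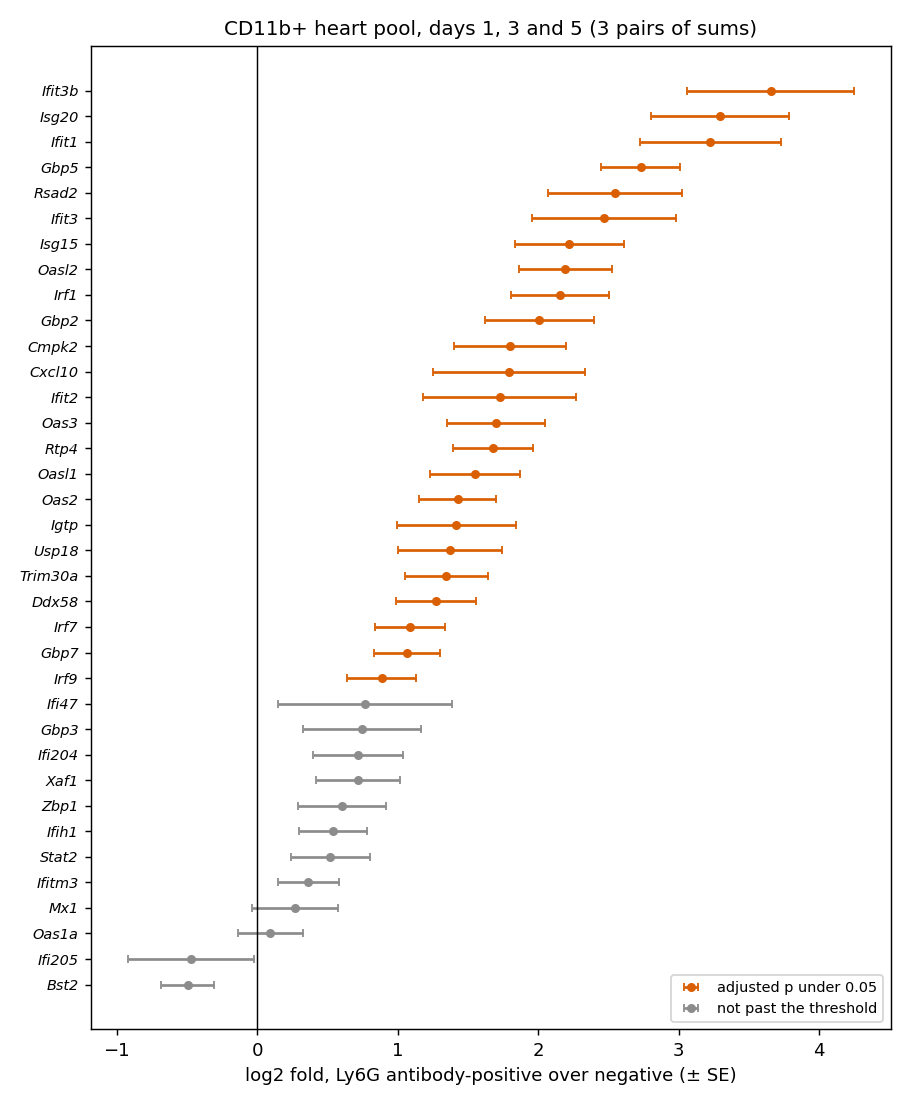
Log2 difference between Ly6G-positive and Ly6G-negative cells of the CD11b+ pool for each tested member (points, with 1 SE bars), coloured by whether the adjusted p was under 0.05. The 24 members past the threshold lie from 0.88 (Irf9) to 3.66 (Ifit3b), and Bst2 and Ifi205 lie below 0.

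Change over days was tested with the CD45+ libraries and the CD11b+ pool as the 2 replicates of days 1, 3 and 5 and the experiment as a block. These differ in sort, chemistry and mice, and each is 1 pool per day. In neutrophils, 0 of 34 tested members passed between day 3 and day 1 with edgeR's quasi-likelihood test (9 had an unadjusted p under 0.05, and DESeq2 also called 0), where 2.2% of all genes passed (0.454% higher, 1.75% lower). The median of the members was -0.80 against 0.01 for all genes on the log2 scale. The lowest values were Zbp1 at -1.94, Stat2 at -1.67 and Xaf1 at -1.49, and Irf1, at 0.99, was the 1 value above 0. On the trimmed-mean scale of the fit, the 2 experiments went opposite ways: within the CD45+ libraries the members' median was 0.92, within the pool -1.93, and 26 of the 34 were higher at day 3 in the first and lower in the second. Zbp1, Stat2, Ddx58, Ifih1, Irf9, Oas1a and Oas2 were lower in both, and Irf1 was higher in both.

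Between day 5 and day 1, 9 of the 34 members fell in neutrophils and 0 rose, against 6.63% of all genes called (1.67% higher, 4.96% lower), and the members' median was -1.62 against -0.02. They were Oasl1 (-2.71, SE 0.66, adjusted p 0.0244), Usp18 (-2.45, SE 0.55, adjusted p 0.0169), Isg20 (-2.40, SE 0.60, adjusted p 0.0281), Ifi204 (-2.30, SE 0.62, adjusted p 0.0382) and Oas2 (-2.30, SE 0.66, adjusted p 0.0491), all by edgeR's quasi-likelihood test with Benjamini-Hochberg adjustment. The others were Xaf1 (-2.19, SE 0.64, adjusted p 0.0495), Ifitm3 (-1.90, SE 0.55, adjusted p 0.0495), Ifih1 (-1.88, SE 0.55, adjusted p 0.0497) and Irf9 (-1.70, SE 0.47, adjusted p 0.0410) by the same edgeR test. On the trimmed-mean scale of this fit the 9 were lower at day 5 in both experiments, but in plain CPM this held for Ifih1, Irf9 and Usp18 only. Oasl1, for example, was at 17.1 and 28.7 CPM at days 1 and 5 in CD45+ neutrophils and at 179.8 and 27.6 CPM in pool neutrophils.

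The calls depended on the scaling, the block, the class definition and single libraries. No member passed without the experiment block, and none when the class of each cell was taken from its own markers (edgeR called 0 in both, 10 and 10 at an unadjusted p under 0.05). With library totals in place of trimmed means, which moved the median of all genes to 0.89 and the split of all calls from 103 higher and 306 lower to 1127 higher and 93 lower, 0 of the 9 passed. For day 3 against day 1 the same change took all calls from 28 higher and 108 lower to 397 higher and 53 lower. Without the pool's day 1 neutrophils the members' median was 0.02 at day 5 and 0.84 at day 3, against -0.10 and -0.08 for all genes. Without the CD45+ day 1 neutrophils the members' median was -2.56 and -1.90, against 0.11 and 0.11. For day 5 over day 1 it was -0.98 without the pool's day 5 neutrophils, against -0.35 for all genes. Without the CD45+ day 5 neutrophils it was -2.21, against 0.03. The 34 tested members had passed a filter on low counts that reads all 6 sums. Between day 5 and day 3, 0 members passed (2 at an unadjusted p under 0.05, 0 by DESeq2, 0% of all genes), and 27 of 34 were lower at day 5 in both experiments. The lowest values were Ifi47 at -1.96, Usp18 at -1.65 and Ifit3b at -1.48, and no fitted value lay above 0.

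In monocytes/macrophages, between day 3 and day 1, DESeq2 called 3 members lower and 5.40% of all genes. With edgeR's quasi-likelihood test 0 of 39 members passed (6 at an unadjusted p under 0.05), where 0.787% of all genes passed. The lowest values were Cxcl9 at -5.90, Iigp1 at -2.82 and Cxcl10 at -1.37, and the highest Ifit3b at 1.11, Gbp3 at 0.79 and Bst2 at 0.77. Between day 5 and day 1 only Oasl1, among the 39, passed (11.9% of all genes passed, 5.22% higher and 6.64% lower). Oasl1 encodes a translation repressor of Irf7. It was at 63.4, 29.3 and 17.3 CPM at days 1, 3 and 5 in the CD45+ libraries and at 44.9, 26.7 and 12.5 CPM in the pool, lower at each later day in both (log2 change -2.13, SE 0.20, adjusted p 0.0061 by edgeR's quasi-likelihood test). Day 5 over day 1 ratios of CPM were 0.273 and 0.278. The members' median was -0.35 against -0.02 for all genes. Between day 5 and day 3, DESeq2 called 1 member and 1.11% of all genes. With edgeR 0 members passed (1 at an unadjusted p under 0.05, 0% of all genes). Oasl1 at -0.98, Ifitm3 at -0.86 and Ifi205 at -0.67 were lowest there, and Cxcl9 at 3.13, Iigp1 at 1.31 and Cmpk2 at 0.40 highest.

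The monocyte/macrophage members also split by experiment, by smaller amounts. Within the CD45+ libraries their median was 0.16 at day 3 and 0.23 at day 5 over day 1, and within the pool -0.42 and -0.86. Cmpk2, Ddx58, Gbp5, Ifi204, Ifih1, Iigp1, Irf9, Isg15, Oas2, Oasl1, Rsad2 and Stat2 were lower than at day 1 in both experiments at both later days. Leaving out the CD45+ day 1 sum put the fitted median of the members at -0.47 for day 3 and -0.65 for day 5, against 0.02 and 0.02 for all genes. Leaving out the pool's day 1 sum put it at 0.42 and 0.11, against 0.08 and 0.06. Without the CD45+ day 5 sum Oasl1 did not pass either.

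**Figure D4:**
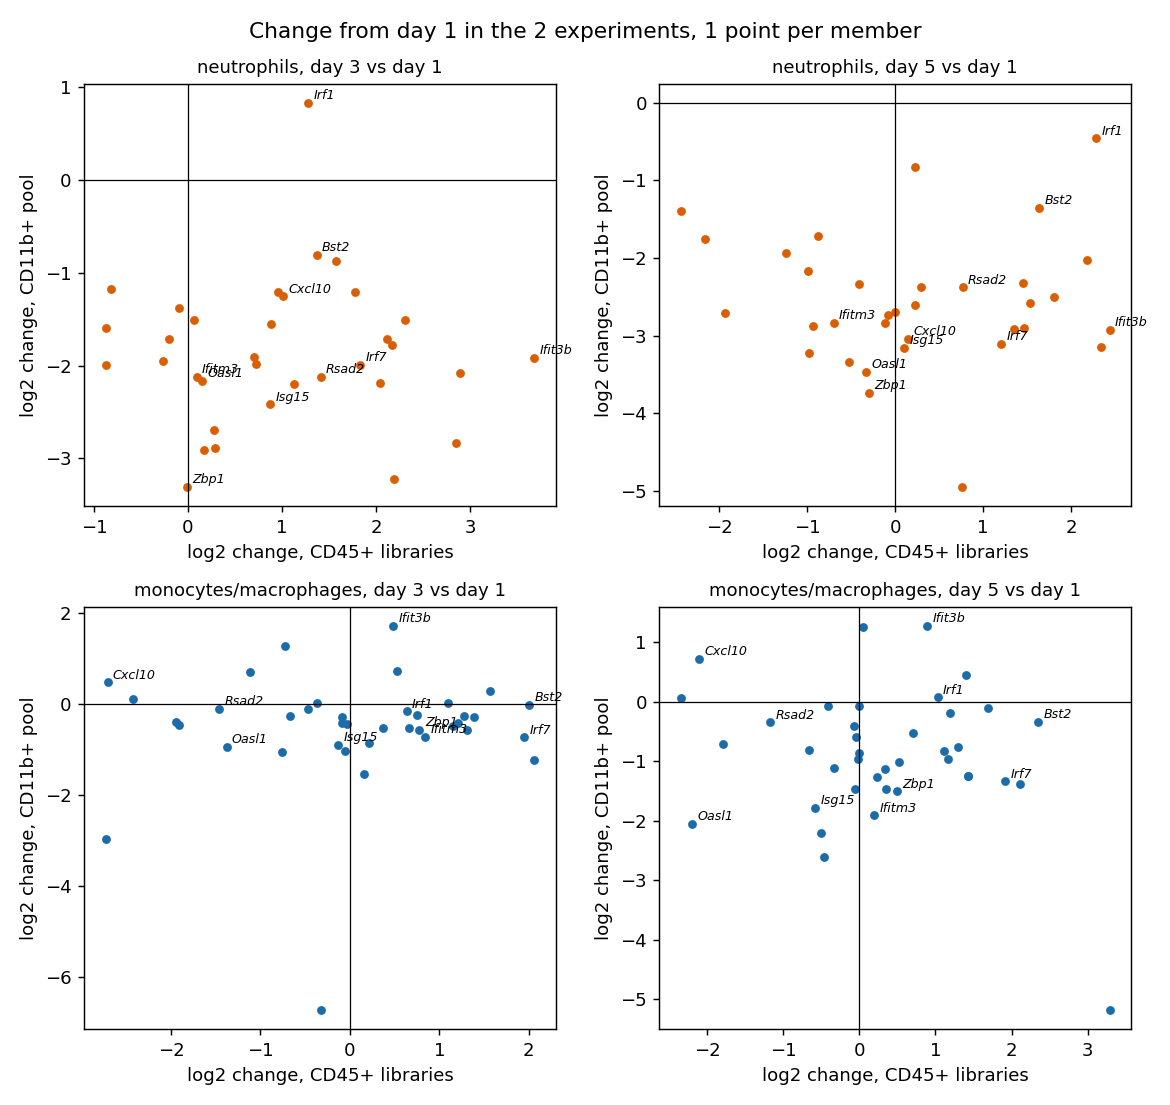
Log2 change of each tested member from day 1 to day 3 and to day 5 within the CD45+ libraries (horizontal axis) and within the CD11b+ pool (vertical axis), for neutrophils and monocytes/macrophages. Neutrophil members lie mostly to the right and below 0, with medians of 0.92 and -1.93 for day 3.

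The difference of the day effect between the classes was tested as an interaction. It passed for 0 of 37 members at day 3 (3 at an unadjusted p under 0.05) and 0 at day 5 (12 at an unadjusted p under 0.05) with edgeR's quasi-likelihood test, and for 0 with DESeq2. Over all genes 0.0197% and 0.738% passed, the latter 0.364% higher and 0.374% lower. On simulated counts the edgeR test recovered 10.5% of genes given a log2 change of 2 at day 3, and 12.5% of its calls were false. The simulated spread was wider than the coefficient of variation of 22.6% fitted to the data, so recovery in the data was not measured. A count of 0 therefore does not show that the classes changed alike. The fit treated the sums of both classes as independent, although those of a library and day came from the same pool of mice. The members' medians were -0.74 and -1.54, a negative sign meaning that the change from day 1 was lower in neutrophils than in monocytes/macrophages, not that the level was, against 0.20 and 0.05 for all genes. The lowest values at day 3 were Mx1 at -3.41, Zbp1 at -1.83 and Gbp3 at -1.54, and the highest Ifi205 at 1.80, Cxcl10 at 1.07 and Irf1 at 0.90. At day 5 the lowest were Mx1 at -8.46, Ifi47 at -3.42 and Iigp1 at -3.08, and only Irf1, at 0.01, lay above 0 among the 37. Mx1 and Iigp1 had 7 and 1 UMIs over the 6 neutrophil sums, so their fitted values do not measure a size of change. Without the pool's day 1 neutrophils the medians were 1.54 and 0.52.

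The module was unevenly spread over the cells of a class. Each cell was thinned to 2000 UMIs, and cells at 20 or more UMIs from the 37 members (1% of the thinned depth) were counted. Such cells were 8 of 191 CD45+ neutrophils at day 1 (4.19%, exact 95% interval 1.83 to 8.09), 16 of 135 at day 3 (11.9%, 6.93 to 18.5) and 5 of 40 at day 5 (12.5%, 4.19 to 26.8). In the pool they were 53 of 232 at day 1 (22.8%, 17.6 to 28.8), 65 of 953 at day 3 (6.82%, 5.30 to 8.61) and 12 of 211 at day 5 (5.69%, 2.97 to 9.72). Median module UMIs per cell were 2, 3 and 3 in CD45+ neutrophils and 6, 2 and 1 in pool neutrophils. The neutrophils at the top 10% held 49.9%, 60.6% and 57.9% of the module's thinned UMIs in the CD45+ libraries and 52.5%, 63.6% and 73.1% in the pool. Thinning left out 26 of 217 CD45+ day 1 neutrophils and 22, 40 and 13 of those of the pool for lack of depth. Without thinning, with the cut at 1% of each cell's own UMIs, the shares were 3.69%, 8.89% and 12.5% in CD45+ neutrophils and 22.4%, 6.34% and 6.70% in pool neutrophils.

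Monocytes/macrophages had a lower share of such cells than neutrophils at each pair of library and day, though nearly the same share at CD45+ day 1. Their shares ran from 4 of 499 (0.802%) at steady state, which had no neutrophil sum, to 10 of 244 (4.10%) at CD45+ day 1. At days 3, 5 and 7 the CD45+ shares were 3.28%, 3.92% and 1.03%, and in the pool 2.35%, 2.20% and 2.01% at days 1, 3 and 5. Lymphocytes gave 0 of 41, 1 of 31 and 0 of 135 T/NK cells at steady state, day 5 and day 7, with upper limits of 8.60% and 2.70% for the counts of 0, and 1 of 965 B cells (0.104%). At CD45+ day 1 the shares were 4.19% in neutrophils and 4.10% in monocytes/macrophages, and without thinning the order turned, at 3.69% and 5.18%. At pool day 1 they were 22.8% and 2.35%. The intervals cover counting error over the cells of 1 pool, not the spread between mice. RNA free in the droplets can add UMIs to any class, and its part in these shares was not tested.

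**Figure D5:**
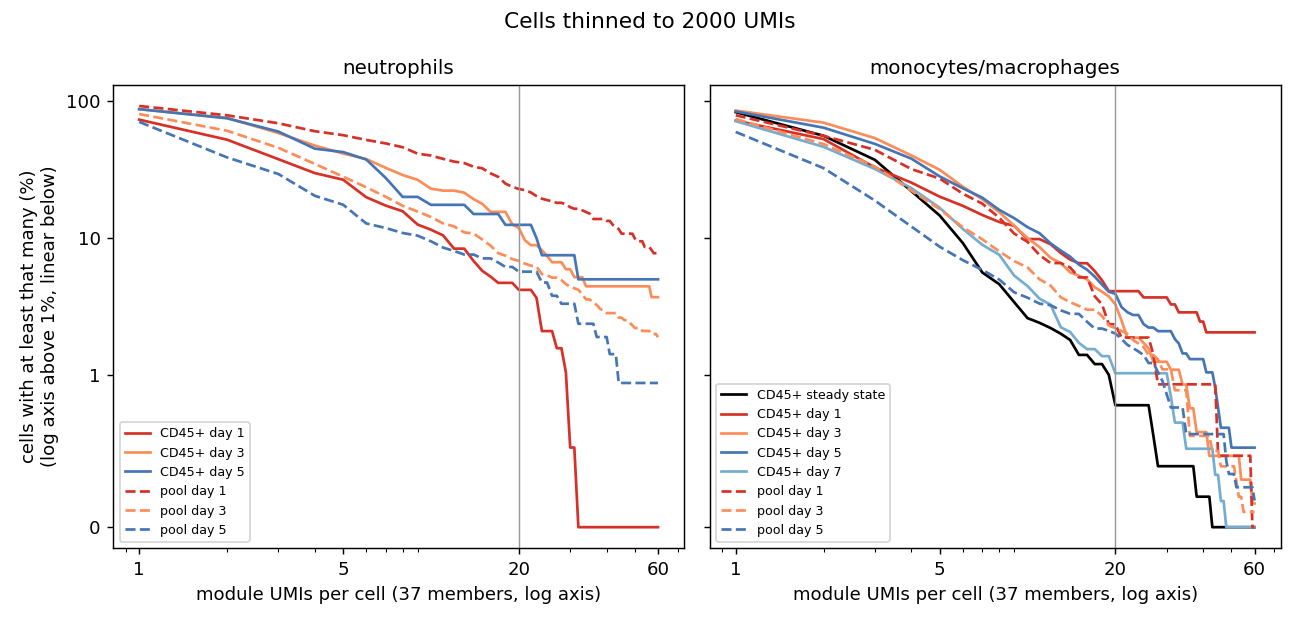
Percent of cells (vertical axis, logarithmic above 1% and linear below) with at least the number of module UMIs on the horizontal logarithmic axis, for the 37 members after thinning to 2000 UMIs, with neutrophils and monocytes/macrophages in separate panels, CD45+ libraries as solid lines and the pool as dashed lines. At the vertical line, 20 UMIs, the pool day 1 neutrophils stood at 22.8% and those of CD45+ day 1 at 4.19%.

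Within the pool's neutrophils the share differed by cluster at every day. The cluster led by Retnlg, S100a9 and Gm5483 held 0.958%, 0.663% and 0.488% of its UMIs in the 37 members at days 1, 3 and 5, and the cluster led by Tnf, Icam1 and Gm12840 held 0.507%, 0.271% and 0.148%. The first made up 205 of 254 pool neutrophils at day 1, 182 of 993 at day 3 and 68 of 224 at day 5. Both clusters were highest at day 1. In the pool's monocytes/macrophages the cluster led by Plac8, Arg1 and Fn1 held 0.170%, 0.218% and 0.168% at days 1, 3 and 5, and that led by C1qa, Fabp5 and C1qc held 0.0894% and 0.0949% at days 3 and 5. In the CD45+ libraries the cluster led by Plac8, Chil3 and Ms4a4c held 0.273%, 0.338% and 0.249% at days 3, 5 and 7, against 0.130%, 0.193% and 0.100% in the cluster led by Ms4a7, Gpnmb and Ctsd. The clusters came from the same cells' other genes, so these values carry no test.

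Steady state and day 7, the 2 times present only in the CD45+ libraries, had the lowest 37-member shares among the CD45+ monocytes/macrophages. Single members departed from that. Irf1 was at 151 CPM (95% Poisson interval 139 to 163) at steady state and at 12.2 to 31.9 CPM at the 4 days after infarction. The lower end of the steady-state interval lay above each later value. Bst2 (395 CPM), Gbp3 (35.1 CPM) and Cxcl9 (14.1 CPM) were also at or near their highest at steady state. In the same steady-state cells 6 stress and immediate early genes, a list chosen after the data were seen, summed to 10330 CPM, against 1204 to 2065 CPM in the class at other times. Their part in the Irf1 value was not tested, and with 1 pool of mice per time the steady state cannot be told apart from its library.

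T/NK cells exceeded monocytes/macrophages of the same library in 3 of 3 sums for Ddx58, Gbp7, Igtp and Ifi47 and were lower in 3 of 3 for 17 members. How many of all genes keep such an order was not counted for T/NK or B cells. The counts of members given here therefore do not set the members apart from other genes. Gbp7 was at 63.9, 58.3 and 56.6 CPM in T/NK cells at steady state, day 5 and day 7, and Ifi47 at 47.9, 80.2 and 49.9 CPM. Irf1 was at 122.5, 72.9 and 96.6 CPM. The first of these rests on 23 UMIs. Isg15 was at 176, 109 and 86.6 CPM and Ifitm3 at 208, 109 and 195 CPM, so Ifitm3 stayed low in T/NK cells at each time. B cells at day 7 were above monocytes/macrophages for Ddx58, Irf9 and Gbp5, and 3 members had under 3 UMIs in them. Isg15 was at 25.1 CPM, Bst2 at 84.7 CPM and Ifitm3 at 203 CPM in B cells.

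In the blood and heart pool the 7 hashtags are 7 unidentified samples. The 37-member share in neutrophils ran from 0.209% (Hashtag4) through a run of 0.289%, 0.312%, 0.316%, 0.341% and 0.381% (Hashtags 5, 2, 3, 1 and 7) to 0.382% (Hashtag6), and in monocytes/macrophages from 0.123% (Hashtag4) to 0.277% (Hashtag1). Neutrophils were higher in 7 of 7 hashtags. With all 39 members the order turned, and monocytes/macrophages were higher in 6 of 7, all but Hashtag6. Ifitm3 alone was at 1255 to 2073 CPM in neutrophils and 3392 to 5513 CPM in monocytes/macrophages. Across hashtags 19 members were higher in neutrophils in 7 of 7 and 11 in monocytes/macrophages in 7 of 7. Of the 10169 genes above the low-count filter, 20.3% and 47.2% were. Of the 13 members higher in neutrophils in all heart pairs, 12 were so in all hashtags too, and of the 7 lower, Oas1a, Mx1, Bst2 and Ifi205 were.

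Oasl2 was at 354 to 490 CPM in neutrophils of the 7 hashtags (median 415) and 53.7 to 129 CPM in monocytes/macrophages (median 78.5). Irf1 was at 173 to 210 CPM against 52.7 to 72.6 CPM, and Bst2 at 8.29 to 59.2 CPM against 115 to 269 CPM. None of these 3 ranges overlapped between the classes. The same held for 12 members with neutrophils above and 10 with monocytes/macrophages above, these 3 included, and for 15.4% and 38.5% of the 10169 genes. Isg15 ranged more widely, from 110.1 to 503 CPM in neutrophils and from 51.0 to 226 CPM in monocytes/macrophages. Cxcl10 was the most uneven: 99.4 CPM in neutrophils of Hashtag7 and at most 3.33 CPM in those of the other 6, while in monocytes/macrophages it was at 74.9 CPM in Hashtag7, 40.6 CPM in Hashtag6, 29.0 CPM in Hashtag1 and 2.42 to 9.74 CPM in the others. Cells with 20 or more module UMIs after thinning made up 2.13% to 7.89% of neutrophils and 0.177% to 3.48% of monocytes/macrophages.

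Of the interferons listed, only Ifnb1 and Ifng had UMIs. Ifna2, Ifna4, Ifnl2 and Ifnl3 had 0 UMIs in every sum. Ifnb1, the first type I interferon made by most cells, had 38 UMIs (16.0 CPM) in CD45+ day 1 monocytes/macrophages, 22 UMIs (5.63 CPM) in those at steady state and 0 to 7 UMIs in every other sum. Ifng, the type II interferon, had 42 UMIs (224 CPM) in steady-state T/NK cells, 6 UMIs (43.7 CPM) at day 5, 10 UMIs (16.6 CPM) at day 7 and at most 4 UMIs in other sums. A UMI count near 0 at this depth does not show that a gene was silent.

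Of 34 other genes of the pathway (ligands, receptors, kinases and factors, inhibitors, adaptors and upstream sensors), 27 could be tested in the Ly6G comparison, where 13 were higher in Ly6G-positive cells and 4 lower, against 20.7% of all genes each way. The largest were Jak2, a kinase shared by several cytokine receptors (log2 difference 2.12), Mb21d1 (cGAS, the cytosolic DNA sensor, 1.84), Tlr4, the receptor for endotoxin (1.71), and Socs3, a feedback inhibitor (1.22). The 4 lower were Tlr3, a sensor of double-stranded RNA (-1.43), Irf8, a myeloid transcription factor (-1.11), Mavs, the adaptor of RIG-I (-0.83), and Tmem173 (STING, the adaptor of cGAS, -0.63). Between day 5 and day 1, Tlr4 and Socs1, an inhibitor of JAK kinases, fell in neutrophils (-2.46 and -2.31, 2 of 20 tested, against 4.96% of all genes lower), and Tlr4, Socs1 and Jak2 fell in monocytes/macrophages (-1.66, -1.50 and -1.22, 3 of 27 tested, against 6.64% of all genes lower and 11.9% called either way). A list of 39 further interferon-responsive genes had 17 higher and 2 lower of 36 tested in Ly6G-positive cells, against 20.7% of all genes each way, led by Slfn1 (4.20), Slfn4 (3.63), Ifitm1 (3.41) and Ddx60 (2.25), with Ciita (-1.72) and Phf11d (-0.86) lower. All of these passed edgeR's quasi-likelihood test with Benjamini-Hochberg adjustment.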

How the data were processed

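Gene UMIs and, in both CD11b+ pools, antibody UMIs were measured per cell in 7 droplet libraries. The authors deposited whole-number counts of UMIs per gene and cell, made with Cell Ranger on build mm10 (GRCm38) per the submitters' processing notes, with version 3.0.2 named in the file headers of the pools. Groups came from the sample labels. Barcodes were dropped under 200 genes or above 10% mitochondrial UMIs, and in the pools also unless exactly 1 hashtag was positive. Scrublet marked 12 of 4824 CD45+ cells as doublets (0 at days 1 and 7), so doublets may remain. Clusters (scanpy 1.11.5, 2000 variable genes, 30 components, Leiden resolution 0.5) were made without the 39 members and named from markers. Counts were summed over at least 30 cells of a class and sample.

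Sums were tested with edgeR 4.0.16 in R 4.3.3 (filterByExpr, trimmed-mean scaling, quasi-likelihood test, two-sided), adjusted by Benjamini and Hochberg over all genes kept, threshold 0.05. The biological coefficients of variation were 31.0% (neutrophils), 19.6% (monocytes/macrophages), 22.6% (both) and 19.3% (antibody gate). P-values measure only the spread between 2 experiments or between 3 days of 1 pool, none of which holds separate mice. The Ly6G gate was a 2-part mixture of the centred log ratio of the antibody. Scripts were tested on simulated counts. Alternatives were DESeq2 1.42.0, other scalings, no low-count filter, a 20% mitochondrial limit, other class definitions, no block and each sum left out. The 37-member set, shares per cluster and the stress genes were added after seeing the data.

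The members and all lists were chosen with earlier results of these data known. Every member past the threshold was named up to 12, otherwise the 6 largest, and with none the 3 largest each way. Levels of every heart neutrophil and monocyte/macrophage sum were given for the members holding 80% of the module's UMIs, and levels or ranges for the largest changes. Of the other pathway genes, those past the threshold were named, at most 4 each way.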

Additional observations from a re-analysis of the deposited data

Results flagged for a closer look

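The share of UMIs held by the 37 members (without Ifitm3 and Bst2) moved in opposite directions in the 2 experiments. In neutrophils, day 3 over day 1 was 3.10 in the CD45+ libraries and 0.389 in the CD11b+ pool, and day 5 over day 1 was 2.69 and 0.263. In monocytes/macrophages the ratios were closer to 1, at 1.08 (CD45+) and 0.820 (pool) for day 3 and at 1.10 and 0.587 for day 5. With all 39 members the monocyte/macrophage ratios lay further from 1, at 1.617 and 0.7725 for day 3 and 1.348 and 0.4549 for day 5. With 1 pool of mice per day in each experiment, the difference between the experiments was not tested.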

How the results depend on the processing

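No member past the threshold changed sign under the alternatives run. Without the pool's day 1 neutrophils, however, the members' median at day 5 was 0.02 against -0.10 for all genes, and the 9 reported lay between -1.82 and -0.47. Limits: each day is 1 pool of mice, the 2 experiments differ in sort and chemistry, and a fit that leaves out 1 sum assumes that the lone sum varies like the others. The labels give no replicate numbers, so day and experiment were the blocks.

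Leaving out 1 sum gave 0 to 29, 0 to 32 and 0 to 2 members called in neutrophils (day 3 over 1, 5 over 1, 5 over 3), 0 to 16, 0 to 19 and 0 to 7 in monocytes/macrophages, 0 to 2 and 0 to 12 for the difference between the classes (days 3 and 5) and 16 to 33 for the antibody gate. The share of all genes called also moved between those fits, so these ranges do not describe the members alone. In neutrophils the count for day 5 over 1, 9 as reported, was 0 with total counts only, 0 without the experiment block, 0 with each cell's class taken from its own markers and 16 without the low-count filter, which also gave 2 for day 3 over 1. In monocytes/macrophages, where 0, 1 and 0 were reported, DESeq2 gave 3, 5 and 1, with 5.40%, 16.5% and 1.11% of all genes called. No filter gave 3 for day 3 over 1 and 5 for day 5 over 1 (3.31% and 10.4% of all genes). For day 5 over 1 size factors gave 2, a 20% mitochondrial limit 3, no block 0 and own markers 2. All genes called there were 12.3%, 12.9%, 0% and 10.8%. The 20% limit also left further clusters of the pool unnamed, so it changed the class as well. The difference between classes had 1 and 12 calls without the filter against 0 and 0, and the antibody gate 11 without the day block against 24. Apart from fewer genes tested or fewer samples, the cause was not tested.

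Of 210 shares, 21 moved beyond their counting interval or, for the 2 classes at days 1, 3 and 5, beyond the spread of the experiments. That spread can be wide: with 37 members, day 1 neutrophils stood at 0.170% (CD45+) and 0.892% (pool). A heart share not counted as moved is therefore not shown to be stable. With a 20% mitochondrial limit the pool's unnamed cells held 0.213% at day 5 with 39 members, and 0.167% and 0.0892% at days 3 and 5 with 37. These were a mix of clusters. Beside the MHC class II-high cluster (416 cells), clusters led by Ctsk, Fabp4 and Gm42418 (306 cells) and by Plac8, Chil3 and Ccr2 (150 cells) stayed unnamed under that limit. The values are therefore not those of the MHC class II-high cluster alone. With own markers, neutrophils of Hashtags 1, 3, 4 and 6 held 0.488%, 0.494%, 0.370% and 0.590% with 39 members, and those of Hashtags 1, 2, 4, 5, 6 and 7 held 0.333%, 0.301%, 0.201%, 0.280%, 0.396% and 0.367% with 37. Own markers gave monocytes/macrophages 0.542% at Hashtag6 with 39 members, and 0.158%, 0.120% and 0.176% at Hashtags 2, 4 and 6 with 37. With members among the variable genes, monocytes/macrophages held 0.485%, 0.571% and 0.615% at Hashtags 4, 6 and 7, and 0.210% with 37 members at Hashtag6. That class held other cells than before, as no cluster of this pool stayed unnamed. A cluster of 547 cells led by Cd74, H2-Ab1 and H2-Aa, with Spp1 and Arg1 also among its leading genes, was named monocytes/macrophages there.

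Of 70 shares of cells at a fixed depth, 8 moved when cells were thinned to 1000 UMIs. With 39 members they were 20.2% of monocytes/macrophages at CD45+ day 3, 7.06% at pool day 3 and 34.1%, 9.02% and 20.3% at Hashtags 1, 2 and 3, and 12.3% and 11.6% of neutrophils at Hashtags 2 and 3. With 37 members B cells at day 7 gave 0%. Among named members, 223 of 272 values under other settings kept their side of the threshold and 49 lost it, and 171 of 204 did with 1 sum left out.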
